A study of Mus musculus with 4 samples.

Results

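The genes described are 10 components of the tight junction, the claudins Cldn1, Cldn3, Cldn4, Cldn6, Cldn7, Cldn8, Cldn10, Cldn12 and Cldn23 together with occludin (Ocln), out of 18193 genes measured. RNA was taken from hair follicle stem cells (HFSCs, the cells that renew the follicle) sorted by flow cytometry from the skin of C57BL/6 mice at postnatal day 4, and was hybridised to 1-colour Affymetrix mouse arrays. Of the 4 arrays, 2 carried RNA from miR-205 KO cells and the other 2 carried RNA from WT cells, numbered 1 and 2 within each genotype. The labels call the numbered samples biological replicates, name neither the deleted segment of the miR-205 locus nor any Cre driver, and do not say whether an array holds 1 animal or a pool. They also carry, for KO and WT alike, a treatment note on Dox-induced miR-203 in mice with K14-rtTA, TRE-miR-203 and K14-H2BGFP, which names neither genotype and was not used to form groups. The members were selected on the higher value of Cldn8 in KO cells and on their family name, and each is represented by its probe set of highest mean over the 4 arrays. Every KO to WT difference of a member is therefore given as a description, with its standard error and with no test.

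Tight junctions seal the space between neighbouring epithelial cells. Claudins are membrane proteins with 4 passes through the membrane whose outer loops meet those of the next cell, and the mixture of claudins in a cell sets which ions and solutes can pass. Occludin is a membrane protein of another family that lies in the same strands, and cytoplasmic scaffolds such as ZO-1 tie the strands to actin. In mouse epidermis the junctions lie in the granular layer, and loss of Cldn1 leads to fatal water loss after birth.

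The microRNA that the labels give as knocked out is shown here because its seed, the stretch that pairs with target messages, is what a claudin transcript would have to match. The mature strands of mouse miR-205 are encoded on the minus strand of chromosome 1 in GRCm38.p6 (RefSeq), with bases 2 to 8, the seed, in capitals. The 5p strand lies at chr1:193507503-193507524 and the 3p strand at chr1:193507467-193507488.
mmu-miR-205-5p: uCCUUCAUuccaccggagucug
mmu-miR-205-3p: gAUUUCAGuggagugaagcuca
Each strand is 22 bases long. The seed of the 5p strand was found in 1 of 1738 mature mouse miRNAs in the RefSeq table, miR-205-5p itself. A message would carry the complement AUGAAGG to pair with it; claudin transcripts were not searched for it here.

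The 4 arrays differed in ways that touch every comparison below. Xist was at 5.26 and 5.45 on the KO arrays, against 13.28 and 13.19 on the WT arrays, and the Y-linked Eif2s3y was at 9.59 and 9.57 on the KO arrays, against 3.05 and 2.86 on the WT arrays (log2 values). Xist and Eif2s3y were the 2 genes that passed in the limma fit over all genes (0.011% of 18193, adjusted p = 0.038 for each). By these RNAs the KO arrays carried RNA of males and the WT arrays RNA of females. Sex and genotype therefore cannot be told apart in any KO to WT difference below, that of Cldn8 included. With any 1 of the 4 arrays left out, 0 genes passed in fits that set 1 array against 2, although the values of both genes stay as far apart as listed. The arrays do not measure mature microRNAs; the host transcript Mir205hg was at 6.52 and 6.13 in KO cells, against 5.81 and 5.30 in WT cells, a dim signal that does not check the deletion. The array number also separated the libraries: the probe set for the 5′ end of 18S ribosomal RNA had log2 values of 11.51 and 9.46 in KO cells, against 11.59 and 9.40 in WT cells, with the arrays numbered 1 high in both. Markers of HFSCs were bright, with Krt15, Nfib and Lhx2 at mean log2 values of 13.82, 12.87 and 11.70, while the surface marker Cd34 averaged 7.02, with 6.87 and 6.69 in KO cells against 8.32 and 6.20 in WT cells.

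The first question was which of these genes the cells expressed. The deposited table has no detection calls, so each gene was set against 32 measured genes of other tissues (such as Alb of liver, Aqp2 of kidney collecting duct and Myh6 of heart muscle). A member counts as above the off-tissue level where its mean lies above the 90th percentile of the means of those genes, a log2 value of 6.62. Of the 10 members, 7 were above this level on every one of the 4 arrays: Cldn1, Cldn3, Cldn4, Cldn8, Cldn10, Cldn12 and Ocln. Cldn6, Cldn7 and Cldn23 were below it on all 4. Of all genes, 52.8% were above it. Just inside was Cldn3, at a mean of 7.06, and just outside was Cldn6, at 6.14. These calls rest on the probe set used, and other probe sets of Cldn1, Cldn3 and Ocln averaged below the level. Probe sets bind their targets with different strength, so the values of different genes are not ranked here. In sorted cells measured in bulk, fewer cells that express a gene and less RNA per cell cannot be told apart.

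Cldn8 is the member whose higher value in KO cells took part in the selection. Cldn8, a claudin that tightens the paracellular path against cations in the distal kidney tubule and colon, had log2 values of 8.70 and 8.10 in KO cells, against 7.84 and 7.29 in WT cells. Both KO arrays lay above both WT arrays. Cldn8 averaged 8.40 ± 0.42 over the KO arrays, against 7.57 ± 0.39 over the WT arrays (SD, n = 2 each), a difference of 0.83 on the log2 scale with a moderated SE of 0.33, or 1.78-fold. Between arrays of the same number the difference was 0.85 for number 1 and 0.80 for number 2. Cldn8 ranked 12 among 18193 genes by this difference, and 0.066% of genes, Cldn8 included, differed by as much or more in this direction. Nothing is read from that rank, since the selection used this contrast. It has 1 probe set on the array, so it was measured once per array.

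The arrays of 1 genotype also differed from each other. Cldn8 was higher on KO 1 than on KO 2 by 0.60, and higher on WT 1 than on WT 2 by 0.55. The lower KO array, at 8.10, exceeded the higher WT array, at 7.84, by less than the step between replicates. Without KO 1 the difference of Cldn8 was 0.53, and without KO 2 it was 1.13.

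The pattern of Cldn8 was not seen in the other 9 members. Of the 10 members, 1 (Cldn8) had both KO arrays above both WT arrays, a pattern that 8.2% of all genes showed, and none had both KO arrays below both WT arrays, which 5.7% of all genes showed. By size, 1 of the 10, again Cldn8, was at least 1.5-fold higher in KO cells, as 0.291% of all genes were. Cldn8 enters these counts through the selection, and finding the pattern in none of the other 9 lies near the share of all genes. Nothing is read from these counts about the family or about how particular Cldn8 is. The differences of the other 9 ran from -0.21 to 0.14, with 4 above and 5 below 0. With 1 array left out, the KO values lay above the WT values in 3 members without KO 2, 5 without WT 1 and 4 without WT 2, Cldn8 included each time, and in Cldn8 alone without KO 1. The median difference was 0.00 over the 10 members, -0.04 without Cldn8 and 0.01 over all genes. The median size of the difference, ignoring its sign, was 0.06 for members and 0.07 for all genes.

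**Figure D1:**
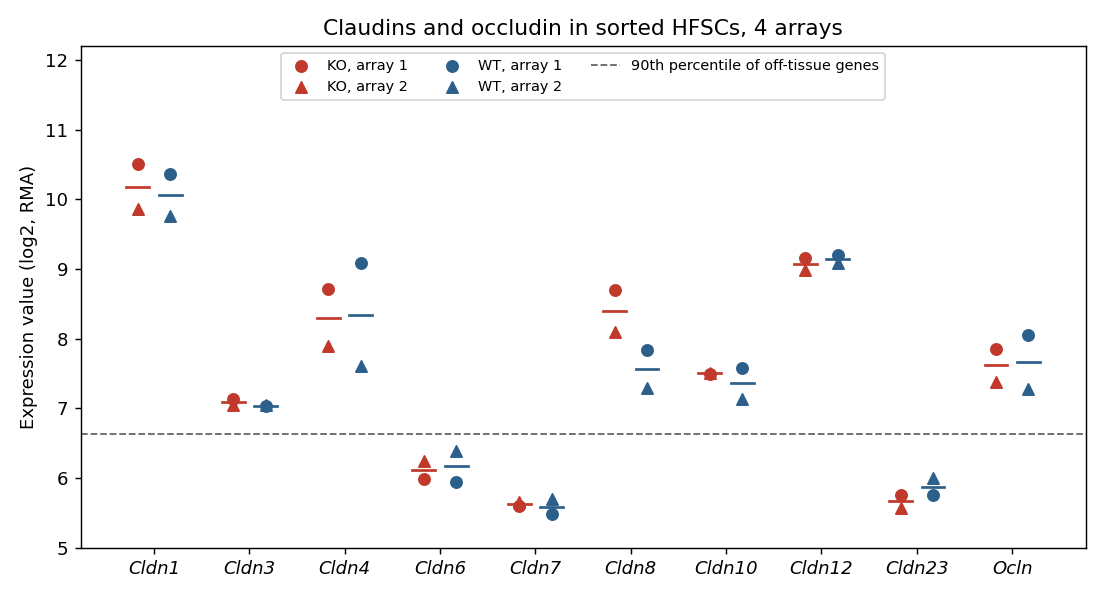
Log2 expression value (vertical axis) of each claudin and of occludin on the KO arrays (red, left of each pair) and the WT arrays (blue, right), with circles for arrays numbered 1, triangles for arrays numbered 2, short bars for group means (n = 2) and a dashed line at the off-tissue level of 6.62. Cldn8 is the member whose KO points, 8.70 and 8.10, both lie above its WT points, 7.84 and 7.29.

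Of the barrier-forming claudins, Cldn1, the claudin without which mouse epidermis leaks water, had log2 values of 10.51 and 9.86 in KO cells, against 10.36 and 9.77 in WT cells. The genotypes overlapped, and the arrays numbered 1 were the high ones in both. Its difference was 0.12 with an SE of 0.36. Cldn4, a barrier claudin that works with Cldn8 in the collecting duct of mouse kidney, was at 8.71 and 7.89 in KO cells, against 9.08 and 7.61 in WT cells. WT 1 was the highest and WT 2 the lowest array, so the WT range enclosed the KO range. Its difference was -0.04 with an SE of 0.68, the widest error of the 10 members, and it was -0.37 between the arrays numbered 1 and 0.28 between the arrays numbered 2. In this fit, which ignores the array number, differences the size of that of Cldn8 were not resolvable for Cldn4 with this spread. The SEs of Cldn1 (0.36) and Ocln (0.37) were also wider than that of Cldn8 (0.33), so a sizeable rise in either could be missed.

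Cldn3, a barrier-forming claudin that is closely related to Cldn4 in sequence, was at 7.14 and 7.04 in KO cells, against 7.03 and 7.04 in WT cells. KO 2 and WT 2 held the same value, and the 4 arrays spanned 0.11. Its difference was 0.06 with an SE of 0.05.

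Cldn10, which forms ion-selective pores in mouse kidney, was at 7.49 and 7.51 in KO cells, against 7.58 and 7.14 in WT cells. WT 2 was the array that stood below the other 3, and the genotypes overlapped. The difference was 0.14 with an SE of 0.18, the largest positive one after Cldn8, and it was -0.09 between the arrays numbered 1 and 0.37 between those numbered 2. The probe set carries the Affymetrix suffix for sets shared by more than 1 transcript, so other RNAs may add to it.

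Cldn12, which belongs to the claudins that lack the usual scaffold-binding tail, was at 9.16 and 8.99 in KO cells, against 9.19 and 9.08 in WT cells. Its 4 arrays spanned 0.20, and the genotypes overlapped. The difference was -0.07 with an SE of 0.09. Occludin was at 7.85 and 7.38 in KO cells, against 8.05 and 7.27 in WT cells. As for Cldn4, the WT arrays were the highest and the lowest, and the difference was -0.05 with an SE of 0.37.

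The 3 members below the off-tissue level also had overlapping genotypes. Cldn6, known from embryonic epithelia, was at 5.99 and 6.25 in KO cells, against 5.94 and 6.39 in WT cells. Cldn7, a claudin of many simple epithelia, was at 5.60 and 5.66 in KO cells, against 5.48 and 5.69 in WT cells. The difference was -0.05 (SE 0.21) for Cldn6 and 0.04 (SE 0.10) for Cldn7. Cldn23 was at 5.75 and 5.57 in KO cells, against 5.75 and 5.99 in WT cells. Its difference of -0.21 (SE 0.13) came from the arrays numbered 2, since KO 1 and WT 1 held the same value.

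**Figure D2:**
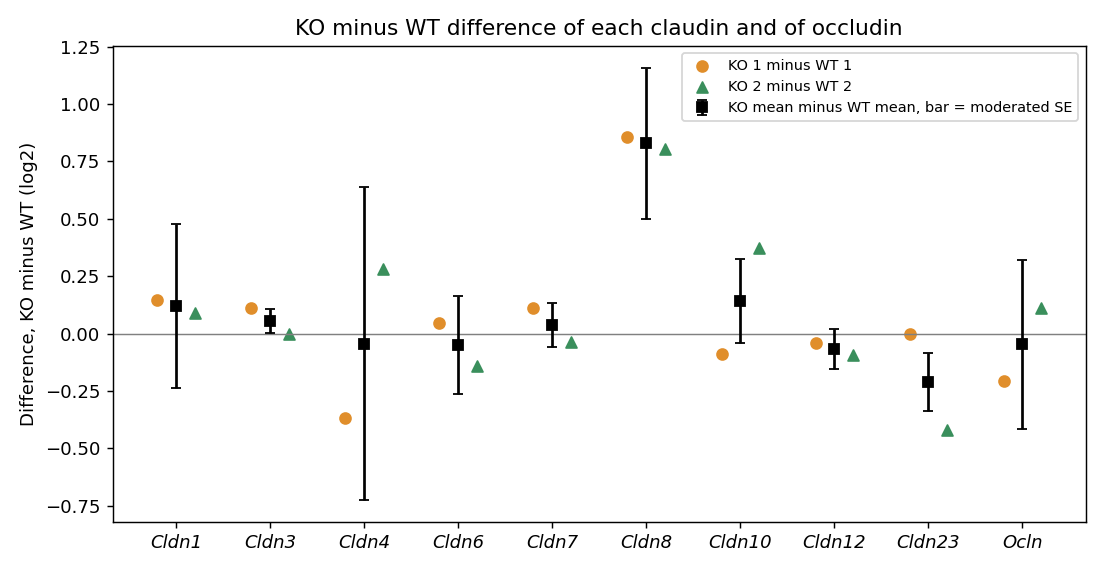
Difference between KO and WT cells (log2, vertical axis) for each member, with black squares for the difference of group means, bars for its moderated SE, circles for KO 1 minus WT 1 and triangles for KO 2 minus WT 2. Cldn8 is at 0.83, with 0.85 and 0.80 within the numbers, while the other 9 means lie between -0.21 and 0.14.

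The members were measured by 18 probe sets in all, and 4 members had several. The 3 other probe sets of Cldn1 differed by -0.05, -0.02 and -0.06 between KO and WT cells, and the last 2 of these were dim, with values from 3.25 to 3.65. The brighter one was at 8.62 and 8.55 in KO cells, against 8.66 and 8.61 in WT cells, and its arrays numbered 1 exceeded those numbered 2 by 0.06, against 0.62 for the probe set used. The 3 other probe sets of Cldn3 differed by 0.05, 0.14 and 0.14, at means of 6.60, 6.43 and 4.84. All 3 means lay below the off-tissue level of 6.62, so Cldn3 counts as above it only through the probe set used. The second probe sets of Cldn12 and Ocln differed by -0.03 and 0.02. Their means were 8.24 and 6.30, the latter below the off-tissue level. No second probe set reached a difference of the size of that of Cldn8. In 5 of the 18 probe sets at least 2 arrays held exactly equal values, against 47.1% of all probe sets, and 3 of these belonged to Cldn3.

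The array number separated more members than the genotype did, as it did over all genes. Cldn1, Cldn4, Cldn12 and Ocln, 4 of the 10, were higher on both arrays numbered 1 than on both numbered 2, and Cldn6 and Cldn7 were lower on both. Over all genes these patterns were seen in 22.0% and 21.7%, against 8.2% and 5.7% for the patterns by genotype. In a list of 10, nothing is read from these counts about the members. Averaged over the genotypes, arrays numbered 1 exceeded arrays numbered 2 by 1.15 for Cldn4, 0.62 for Cldn1, 0.62 for Ocln, 0.57 for Cldn8 and 0.14 for Cldn12. The median of this step was 0.17 over the members and 0.00 over all genes. Dermal fibroblast genes took the same split: 13 of 14 measured markers were higher on both arrays numbered 1, against 22.0% of all genes, and their summed linear signal, in units of 1000, was 34.3 and 18.4 in KO cells, against 58.6 and 14.8 in WT cells. Whether these cells bear on the claudin values was not tested.

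The genes most like Cldn8 over the 4 arrays were found among the genes above the median mean level, as those at the smallest Euclidean distance after each gene was centred on its own mean. The nearest 6 were H60c, which encodes a ligand of the lymphocyte receptor NKG2D (distance 0.14), the heparan sulfate sulfotransferase gene Hs3st3b1 (0.19), the kelch-family gene Enc1 (0.23), the decoy receptor for interleukin 1, Il1r2 (0.24), Pde4dip (0.24) and Mosmo, a modulator of Hedgehog signalling (0.27). H60c was at 8.25 and 7.53 in KO cells, against 7.47 and 6.81 in WT cells, the same order of arrays as for Cldn8. The nearest member was Cldn1, at 0.71, followed by Cldn10 at 0.82 and Ocln at 0.90. With 4 arrays, a similar order of values can arise between unrelated genes.

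**Figure D3:**
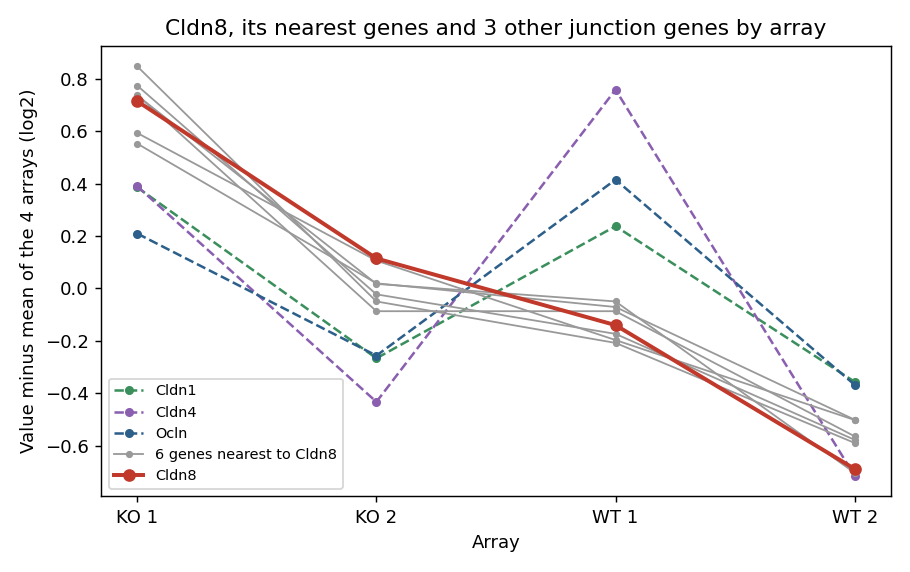
Value on each array minus the gene's own mean over the 4 arrays (log2, vertical axis) for Cldn8 (red), the 6 genes nearest to it (grey) and Cldn1, Cldn4 and Ocln (dashed), with the KO arrays left of the WT arrays. Cldn8 is highest on KO 1 and lowest on WT 2, with log2 values before centring of 8.70 and 7.29. Cldn4 and Ocln are highest on WT 1, at 9.08 and 8.05 before centring.

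Genes that neighbour Cldn8 in the RefSeq gene order (GRCm38.p6) had differences between -0.15 and 0.06. On one side the nearest 3 with a probe set were 4930590A17Rik, Grik1 and Bach1, with differences of -0.09, 0.00 and -0.13. On the other side they were 2310079G19Rik, the hair keratin-associated protein gene Krtap26-1 and 2310061N02Rik, at -0.12, 0.06 and -0.15. All but Bach1 were below the off-tissue level, and the KO arrays of Bach1, 9.84 and 9.65, lay just below its WT arrays, 9.90 and 9.84. This comparison was added after the values were seen.

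Of 17 other claudin names listed, 12 were measured, and 1, Cldn22, lay above the off-tissue level, at 6.72 and 6.86 in KO cells and 6.65 and 6.94 in WT cells. Cldn5, the claudin of blood vessels, was below it at 5.68 and 5.50 in KO cells, against 5.60 and 5.88 in WT cells. The 12 differed by -0.30 to 0.21 with a median of 0.02, and 1 (Cldn14, dim at 4.55 to 4.87) had both KO arrays above both WT arrays, against 8.2% of all genes. Cldn9, which neighbours Cldn6, differed by 0.09.

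The scaffolds and polarity proteins to which claudins are tied were mostly bright, with 17 of 20 measured genes above the off-tissue level. Tjp1, which encodes ZO-1, was at 10.23 and 9.92 in KO cells, against 10.08 and 9.86 in WT cells, a difference of 0.11 (SE 0.16, limma adjusted p = 1). Cgn, the junction protein cingulin, was at 6.25 and 6.76 in KO cells, against 5.93 and 6.29 in WT cells, and differed by 0.40 with overlapping groups. Tjp3, which encodes ZO-3, differed by 0.44, all of it from the arrays numbered 1, at 5.90 in KO and 5.01 in WT cells, since KO 2 and WT 2 held the same value of 5.23. The differences were 0.24 for Pard6b, a polarity adaptor, 0.14 for the scaffold gene Patj and -0.09 for Cgnl1, the lowest of the list. The median of the 20 was 0.07, and 1 of them, the polarity adaptor gene Pard6g, had both KO arrays (11.16 and 11.14) above both WT arrays (11.10 and 11.12).

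Among 14 membrane partners of claudins, 6 were above the off-tissue level and the median difference was -0.05. F11r, the adhesion molecule JAM-A, was at 10.26 and 10.50 in KO cells, against 10.27 and 10.43 in WT cells. Epcam, which binds Cldn7 and steadies it, differed by -0.03, and Lsr, the receptor that marks corners where 3 cells meet, by -0.12. Marveld2, the tricellulin gene, differed by -0.14 and Marveld3, of the same family as occludin, by 0.29. Marveld3 had both KO arrays, 7.91 and 7.82, above both WT arrays, 7.71 and 7.44, with an unadjusted p of 0.094 in the limma fit (adjusted p = 1). Ildr1, dim at 4.93 and 4.62 in KO cells against 4.59 on both WT arrays, differed by 0.18, Esam by -0.14, Igsf5 by -0.15 and Clmp by -0.20.

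Regulators of junction genes and of the epithelial state gave a median difference of 0.05 over 20 genes, of which 15 were above the off-tissue level. Of the Grainyhead-like factors, which bind genes of epithelial junctions, Grhl1 differed by 0.19, Grhl2 by 0.02 and Grhl3, which was below the off-tissue level, by 0.25. Klf4, a factor needed for the epidermal barrier, differed by -0.18, and the zinc finger factors Ovol1 and Ovol2 by 0.10 each. Snai2, a repressor of epithelial genes, was at 12.21 and 11.76 in KO cells, against 11.76 and 11.32 in WT cells, a difference of 0.44 (SE 0.26, limma adjusted p = 1). KO 2 and WT 1 were equal to 2 decimals. Its relative Snai1 differed by -0.21, with both KO arrays (4.63 and 4.62) below both WT arrays (4.95 and 4.72), and was dim. Spint1, an inhibitor of membrane serine proteases, differed by 0.11.

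Over all 66 measured genes of the lists outside the members, regulators included, none passed at an adjusted p under 0.05 in limma, against 0.011% of all genes. In the same fit none had an unadjusted p under 0.05, against 1.15% of all genes higher and 0.726% lower. None reached 1.5-fold. 6 of the 66 had both KO arrays above both WT arrays, against 8.2% of all genes, and 1 had both below, against 5.7%. A p that misses the threshold with 2 arrays a group does not show that these genes were the same in both genotypes.

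**Figure D4:**
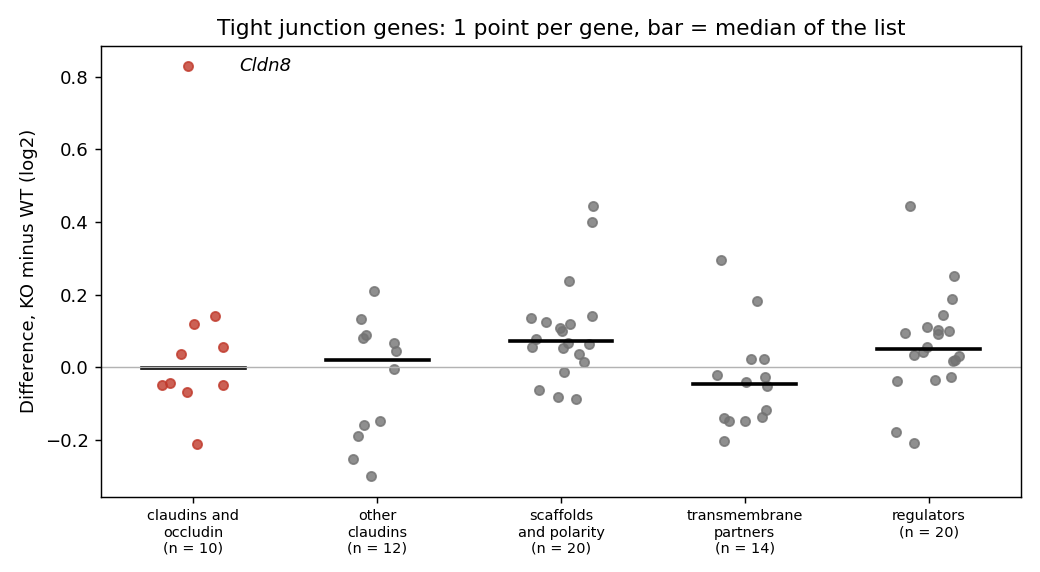
KO minus WT difference (log2, vertical axis) of each gene in the 5 lists of tight junction genes and their regulators, 1 point per gene and a bar at each list's median. Cldn8, at 0.83, lies above every point of the 4 other lists, whose largest size is 0.44. It was selected on its higher value in KO cells, so nothing is read from its place.

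Markers of the layers and cell types a skin sort can hold were read beside Cldn8. Several markers of differentiated epidermis were higher on both KO arrays, as Cldn8 was. Krt1, the keratin of the spinous layer, was at 11.37 and 11.31 in KO cells, against 10.32 and 9.86 in WT cells. Krt10, its partner, was at 12.22 and 12.21 in KO cells, against 11.75 and 11.06 in WT cells. The differences of these keratins were the largest of their list. Of 19 measured markers of that compartment, 5 had both KO arrays above both WT arrays (8.2% of all genes) and none both below. The summed linear signal, in units of 1000, was 21.4 and 21.6 in KO cells, against 17.5 and 16.4 in WT cells, with Dmkn, Krt10 and Krtdap among the markers. The median difference of the list was 0.06, and 13 of the 19 differed upward. The others differed downward, Casp14 by -0.15, Ivl by -0.11, Sprr1a by -0.11, Klk7 by -0.07, Tgm1 by -0.03 and Dmkn by -0.02.

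Of basal keratinocyte markers, 6 of 10 had both KO arrays above both WT arrays, against 8.2% of all genes. Krt14 and Krt5 were among the 6, and Trp63 was not. The summed signal of the 10, in units of 1000, was 49.5 and 47.0 in KO cells, against 44.5 and 42.4 in WT cells. HFSC markers gave 3 of 12 above, against the same 8.2% of all genes, and a median of 0.00. Hair matrix and sheath markers gave 3 of 15 above (8.2% of all genes) and a median of 0.09. Krt25 and Tchh were among the 3, and Gata3 was not. Of the 15, 12 differed upward, while Krt35 (-0.57, the largest difference of the list), Krt31 (-0.15) and Hoxc13 (-0.11) differed downward. The summed signal of the 15, in units of 1000, was 7.64 and 7.64 in KO cells, against 7.30 and 6.32 in WT cells. Sebaceous markers gave 1 of 9 above (8.2% of all genes) and 1 below (5.7%), with Scd1, Plin2 and Acsbg1 among the 9. Sweat and mammary gland markers gave 0 of 8 above, Krt77, Krt7 and Krt19 included. In lists this short, counts of 0 or 1 lie near the shares of all genes, so nothing is read from them. The part of the cells these markers stand for in the Cldn8 difference was not tested.

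In the lists of other lineages, no marker had both KO arrays above both WT arrays. Of all genes 8.2% had this pattern, so a count of 0 in lists this short is near that share. Nothing is read from it about these lineages. Fibroblast markers had no member with separated genotypes and a median of -0.37 (Col3a1, Col1a2 and Postn among them). The pairs of arrays went opposite ways. For Col3a1, Col1a2 and Postn, KO 1 minus WT 1 was -0.78, -0.78 and -0.17, and KO 2 minus WT 2 was 0.51, 0.52 and 0.08. Between the arrays numbered 2, all fibroblast markers but Col5a1, Fbln1 and Pdgfrb were higher in KO cells. None of 11 endothelial markers, Egfl7, Flt1 and Kdr among them, had both KO arrays above both WT arrays, and neither did any of 9 melanocyte (Dct, Mitf and Pmel), 9 immune (Csf1r, Cd3e and Lyz2) or 7 Merkel cell markers (Krt8, Krt18 and Piezo2). Both KO arrays lay below both WT arrays for 3 endothelial markers (Egfl7, Kdr and Pecam1), for 1 melanocyte marker (Mitf), 1 immune marker (Cd74) and 1 Merkel cell marker (Krt20), a pattern seen in 5.7% of all genes. All 9 immune markers, Ptprc among them, and 10 of the 11 endothelial markers lay below the off-tissue level.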

How the data were processed

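RNA of 2 KO and 2 WT samples was measured on 1 Affymetrix array each. The authors deposited log2 expression values per probe set made with RMA, per the submitters' processing notes; no software version is stated in them. No genome build is named, so genes carry no coordinates. The 45101 probe sets had array medians from 5.85 to 5.87. Of them 34945 had 1 gene symbol in GEO's platform annotation, 932 had several, 9160 had none here and 64 were controls, and 34741 of the named ones matched the GRCm38.p6 RefSeq table by gene identifier. For each of 18193 genes the brightest probe set by mean was kept, and a gene listed under an older name was matched by synonym (Cldn26 as Tmem114, Pals1 as Mpp5). The KO and WT arrays were fitted in limma 3.58.1 under R 4.3.3 (lmFit, eBayes, two-sided, Benjamini-Hochberg over all genes, threshold 0.05). A run on simulated data with independent noise and no step by array number checked only that the mean differences put in came back. SEs are moderated. With 2 arrays a group, their number limits the precision. Members and lists were chosen with earlier results of these data known. Genes named are all members, other claudins above the off-tissue level, preset partner genes, up to 4 partners of smallest p and the largest difference each way per partner list, the 6 genes nearest to Cldn8 and up to 3 genes of highest mean per marker list. Others were named after their values were seen. No 3′ UTR or protein sequence was used here. Alternatives were quantile normalization again, centring on array medians, removal of genes under the median gene, averaging of each gene's probe sets, a replicate block, eBayes with trend, other off-tissue levels and leaving out each array; the neighbours of Cldn8 and the split by array number were added after the data were seen.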

Additional observations from a re-analysis of the deposited data

How the results depend on the processing

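The Cldn8 difference was 0.82 with quantile normalization again, 0.84 with arrays centred on their medians and 0.83 with the replicate block. The SE with the block was 0.048 in place of 0.33. With 4 arrays, little is left after the block to estimate a gene's spread from, so the smaller SE is not read as a gain in precision. The block also narrowed the SE of other members, to 0.049 for Cldn1, 0.21 for Cldn4 and 0.11 for Ocln. It widened the SE of Cldn3 to 0.057 and of Cldn23 to 0.14. Leaving out 1 array moved the Cldn8 difference between 0.53 (without KO 1) and 1.13 (without KO 2), 0.55 without WT 2 and 1.10 without WT 1. The labels do not say that a number marks a shared litter or day; deviations from the group means in same-numbered KO and WT arrays correlated at r = 0.56 across genes, which are not independent. The count of genes passing over all genes, 2 as reported, was 3 with quantile normalization again, 3 with arrays centred on their medians, 2 with the trend, 0 when probe sets were averaged per gene, 1 with dim genes removed, 0 with the replicate block, and 0 without any 1 array. The member median of 0.00 ran from -0.084 (without WT 2) to 0.195 (without WT 1). Members with KO above WT numbered 1 over all 4 arrays and without KO 1, and up to 5 without WT 1, when Cldn1, Cldn4, Cldn10 and Ocln joined Cldn8. There were 3 without KO 2 and 4 without WT 2, since fewer arrays separate more easily. No gene of the partner lists, regulators included, passed under any setting that kept all 4 arrays. In those settings where no gene at all passed, this says nothing about the partner genes. Members above the off-tissue level numbered 10 with the level set at the median of the off-tissue genes and 6 at their highest, where Cldn3 dropped out. The sign of some other members changed with the array left out. For example, Cldn4, at -0.04, ran from -0.78 (without WT 2) to 0.69 (without WT 1), Ocln, at -0.05, from -0.44 to 0.34 (the same arrays), and Cldn1, at 0.12, from -0.21 (without KO 1) to 0.45 (without KO 2). The cause of these shifts was not tested, beyond the fewer arrays or genes in each. With 2 arrays a group, each array weighs heavily on every member.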

Other observations

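The array also carries genes with a claudin-like domain that belong to none of the lists and were read after the values were seen. Cldnd1 was bright, at 9.66 and 8.96 in KO cells, against 9.31 and 8.83 in WT cells, a difference of 0.24 with an SE of 0.35. It was higher on both arrays numbered 1, like Cldn1, Cldn4, Cldn12 and Ocln. Cldnd2 and the Cldn34 genes Cldn34b2, Cldn34c1, Cldn34c4 and Cldn34d were all below the off-tissue level and differed by -0.14 to 0.06.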
